A study of Mus musculus with 6 samples.

Results

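Ly6c2, F13a1, Adgre1, Ccr2, Csf1r, Lyz2, C3, Ctss, Mpeg1 and Itgam are 10 genes known from monocytes and macrophages, and they are described here in long-term haematopoietic stem cells (LT-HSC) with and without Prdm16. They were taken by symbol from a deposited table of 27179 genes, and all 10 were matched. The genes were picked with their difference between control and knockout in view, so their values are a description and carry no test. Of the 10, 9 were higher in every knockout library than in every control library. Of the 13018 genes with at least 1 CPM (reads per 1000000 reads of the library) in at least 3 libraries, 8.52% were. Among the 9, 7 had under 3 CPM in each control library. Of these 7, 3 had no control library at 1 CPM and met that filter through the knockout libraries alone, so they had to differ.

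Monocytes are circulating myeloid cells made in the bone marrow, and macrophages are the long-lived phagocytes of tissues, the marrow included. The surface protein Ly6C marks the classical monocyte, the chemokine receptor CCR2 lets it leave the marrow, and signals through the CSF1 receptor keep macrophages alive. The stem cell that lies upstream of all these lineages is sorted by, among other marks, the lack of the surface proteins of mature blood cells.

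RNA was sequenced from LT-HSC of C57BL/6 mice, sorted as Lin-, Sca-1+, c-Kit+, CD48- and CD150+. Both groups carried 2 conditional Prdm16 alleles and were injected 5 times with pIpC, an RNA mimic of virus that induces interferon and through it the Mx1 promoter. Control mice (Prdm16-Mx1-Cko/Cko; +/+) lacked the Mx1-Cre transgene and knockout mice (Prdm16-Mx1-Cko/Cko; Tg/+) carried it, and cells were taken 5 weeks after pIpC from animals aged 8 to 12 weeks. Marrow of 5 mice per genotype was pooled before the sort, and the 3 libraries of a group are technical replicates of that pool, so p-values measure the spread between portions of 1 pool and not between animals. The Mx1 promoter answers to interferon in many cell types and is not specific to stem cells, and the control group does not carry Cre. The labels name no antibodies for the lineage gate.

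Libraries held 36747729 to 43743795 reads. Prdm16, a zinc-finger transcriptional regulator and the deleted gene, ran from 1381 to 1860 reads in control libraries and from 323 to 643 in knockout libraries (log2 fold change -1.93, SE 0.27, limma adjusted p = 0.00829). That call was lost without the mean-variance trend (adjusted p = 0.0967), with no filter on low values (0.0599) and without knockout replicate 2 (0.0508). At an adjusted p below 0.05, limma called 53 of 13018 tested genes higher in knockout and 38 lower (0.699% in either direction). Of 18 genes that mark LT-HSC, such as Kit, Slamf1, Procr and Hlf, all 18 passed the filter and 0 were called by limma or by voom, with 4 higher and 1 lower at an unadjusted p below 0.05, a threshold that 5.58% of all tested genes passed as higher and 4.72% as lower. Kit, Slamf1, Procr and Hlf overlapped between groups. In every knockout library 7 of the 18 (Ly6a, Mecom, Hoxb5, Mllt3, Ctnnal1, Vwf and Mycn) lay higher than in any control library and 1 (Meis1) lay lower. Over all tested genes these shares were 8.52% and 8.01%. The summed level of the 18 was 4630 to 4868 CPM in control and 4672 to 5076 in knockout. Summed markers of neutrophils, of eosinophils, basophils and mast cells, and of B and plasma cells were higher in every knockout library than in any control library, and their part in the values of the 10 genes was not tested. In a bulk sample, a change in the share of cells of a type and a change in RNA per cell cannot be told apart.

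The regions just before the start sites are shown for 5 of the genes, because these 5 hold a match to a motif bound by a myeloid regulator and lie outside annotated exons. On both strands 3 short motifs were searched: GAGGAA, the core bound by PU.1 (the product of Spi1), TTGCNNAA, bound by C/EBP factors, and GAAANNGAAA, bound by interferon regulatory factors. Each sequence is the 250 bases upstream of a RefSeq start site (GRCm38.p6, the assembly that mm10 names), written 5′ to 3′ on the strand of the gene, with the motif matches, which do not overlap, in capitals.
Ly6c2 promoter, chr15:75111972-75112221, minus strand: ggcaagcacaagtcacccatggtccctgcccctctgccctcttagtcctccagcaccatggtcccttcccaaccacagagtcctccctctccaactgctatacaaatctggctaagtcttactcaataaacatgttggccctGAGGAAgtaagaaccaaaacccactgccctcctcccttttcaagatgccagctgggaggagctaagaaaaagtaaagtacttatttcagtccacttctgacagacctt
F13a1 promoter, chr13:37050245-37050494, minus strand: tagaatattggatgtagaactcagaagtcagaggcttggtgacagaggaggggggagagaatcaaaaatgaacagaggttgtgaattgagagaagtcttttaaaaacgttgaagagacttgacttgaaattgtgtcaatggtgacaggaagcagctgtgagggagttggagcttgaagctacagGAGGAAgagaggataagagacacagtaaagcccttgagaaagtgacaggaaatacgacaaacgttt
C3 promoter, chr17:57228137-57228386, minus strand: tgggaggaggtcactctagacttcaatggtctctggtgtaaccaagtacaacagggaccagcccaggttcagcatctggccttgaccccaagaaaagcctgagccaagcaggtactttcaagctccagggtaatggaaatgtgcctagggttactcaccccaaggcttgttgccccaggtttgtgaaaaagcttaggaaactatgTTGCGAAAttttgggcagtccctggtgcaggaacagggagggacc
Ctss promoter, chr3:95526536-95526785, plus strand: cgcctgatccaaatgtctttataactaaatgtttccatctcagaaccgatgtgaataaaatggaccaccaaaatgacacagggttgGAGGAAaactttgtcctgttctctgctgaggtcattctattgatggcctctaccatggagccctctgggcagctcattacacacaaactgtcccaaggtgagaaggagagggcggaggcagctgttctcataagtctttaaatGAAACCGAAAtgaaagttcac
Itgam promoter, chr7:128062390-128062639, plus strand: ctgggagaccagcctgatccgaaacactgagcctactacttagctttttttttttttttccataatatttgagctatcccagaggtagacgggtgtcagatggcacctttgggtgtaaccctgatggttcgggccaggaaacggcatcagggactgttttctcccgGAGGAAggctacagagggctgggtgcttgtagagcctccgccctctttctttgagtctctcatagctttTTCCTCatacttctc
The table of promoters holds 8 of the 10 genes, and Adgre1 and Csf1r are not in it. These 8 genes have 10 promoter entries, of which 5 hold GAGGAA, against 23.3% of all 32851 promoters of that length. Of those 5, 2 are overlapping windows of Ly6c2 that share a match. By gene, 4 of 8 hold it (Ly6c2, F13a1, Ctss and Itgam). TTGCNNAA stands in the promoter of C3 and in 9.56% of all promoters, and GAAANNGAAA in that of Ctss and in 2.98%. F13a1, nearly absent from control libraries, and Itgam, present in all 6, both hold GAGGAA.

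Levels are given as recovered reads, or as CPM after division by the effective library size. Surface proteins come first. Ly6c2 (NCBI gene 100041546, chromosome 15, 75108161 to 75112066, mm10) encodes the Ly6C protein of classical monocytes. Control replicates 1, 2 and 3 held 42, 23 and 17 Ly6c2 reads, and knockout replicates 1, 2 and 3 held 1430, 1793 and 1916. The groups lie far apart and the knockout libraries are close to each other. Mean levels of Ly6c2 were 0.684 ± 0.329 CPM in control libraries and 41.4 ± 2.60 CPM in knockout libraries (SD over 3 libraries, as for all such values), and the ratio of reads was 61.3 with a 95% exact binomial interval of 49.3 to 77.2, which like all intervals here covers counting error only.

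Adgre1 (gene 13733, chromosome 17, 57358581 to 57483529) encodes F4/80, an adhesion receptor used as a macrophage marker that is also found on eosinophils. No Adgre1 read was found in any control library, while the knockout libraries held 198, 188 and 274. With a floor of 3 reads per control library (0.0748 CPM as the group mean), the knockout level of 5.34 ± 0.946 CPM was at least 71.3-fold higher.

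Itgam (gene 16409, chromosome 7, 128062640 to 128118491) encodes CD11b, the alpha chain of the integrin Mac-1 and a usual target of lineage antibodies. It had 1410, 1709 and 1747 reads in control libraries and 1933, 1655 and 2036 in knockout libraries. Its groups overlapped, with 40.4 ± 5.74 CPM in control and 45.8 ± 6.91 CPM in knockout. Among the 10 genes, Itgam alone did not separate the groups, and it was well measured in both. Without knockout replicate 2, the lowest of its group, the 2 knockout libraries left lay above all controls.

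**Figure D1:**
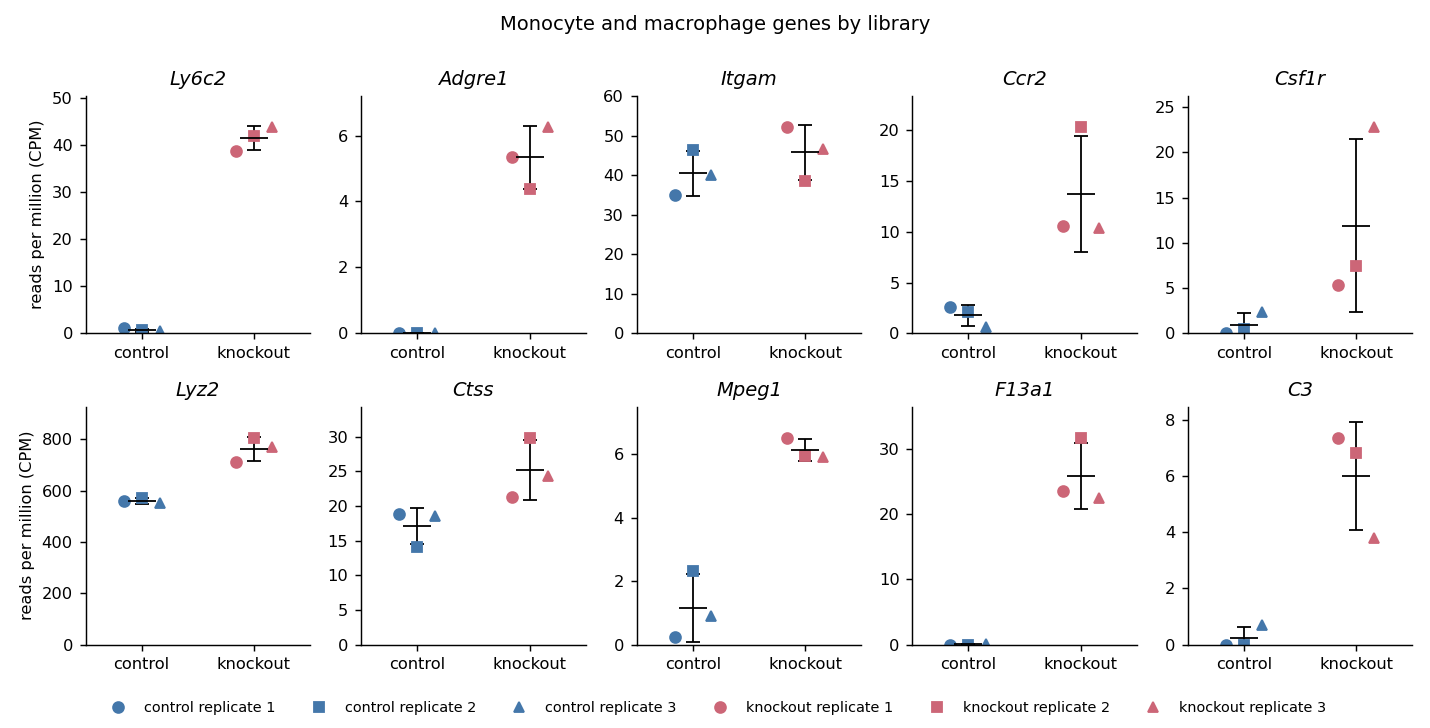
CPM (vertical axes, each from 0) of the 10 genes in the 3 control and 3 knockout libraries; symbols are libraries, long bars are group means and error bars are 1 SD. The groups overlap for Itgam and for none of the other 9 genes, and the 3 knockout libraries differ most from each other for Csf1r, from 199 to 998 reads.

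The receptors that guide and sustain monocytes varied more. Ccr2 (gene 12772, chromosome 9, 124101918 to 124109140), the receptor for the chemokine CCL2, had 103, 78 and 26 reads in control and 389, 874 and 451 in knockout. Every knockout library held more than any control library, and knockout replicate 2 held the most. Ccr2 averaged 1.75 ± 1.03 CPM in control and 13.7 ± 5.74 CPM in knockout, a ratio of reads of 8.10 (interval 7.01 to 9.40).

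Csf1r (gene 12978, chromosome 18, 61105572 to 61131139), the receptor for CSF1 and IL-34, had 0, 18 and 103 reads in control and 199, 321 and 998 in knockout. The groups do not overlap but come close, with 103 reads in control replicate 3 and 199 in knockout replicate 1. Csf1r averaged 0.95 ± 1.25 CPM in control and 11.9 ± 9.53 CPM in knockout, a ratio of reads of 12.3 (interval 10.2 to 14.9). Knockout replicate 3 held more Csf1r reads than the other two knockout libraries together.

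Lyz2 and Ctss encode enzymes of the lysosome and were well measured in both groups. Lyz2 (gene 17105, chromosome 10, 117277541 to 117282272), the lysozyme of myeloid cells, had 22560, 21104 and 23994 reads in control and 26282, 34610 and 33721 in knockout. Lyz2 was thus abundant without any loss of Prdm16, at 560.3 ± 11.3 CPM against 763 ± 48.2 CPM in knockout, a ratio of reads of 1.37 (interval 1.35 to 1.38). Ctss (gene 13040, chromosome 3, 95526786 to 95556405), the cathepsin that trims the invariant chain of MHC class II, had 760, 518 and 807 reads in control and 788, 1282 and 1061 in knockout. In CPM the lowest Ctss value in knockout still lay above the highest in control, with means of 25.2 ± 4.34 and 17.1 ± 2.66 CPM and a ratio of reads of 1.47 (interval 1.39 to 1.55).

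Mpeg1 (gene 17476, chromosome 19, 12460770 to 12465285) encodes perforin-2, a pore-forming protein that macrophages use against engulfed bacteria. It had 10, 86 and 39 reads in control and 241, 255 and 258 in knockout. The knockout libraries were nearly equal and the control libraries were not, at 6.12 ± 0.346 CPM and 1.16 ± 1.07 CPM, a ratio of reads of 5.46 (interval 4.54 to 6.61).

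Both genes of secreted plasma proteins were nearly absent from control. F13a1 (gene 74145, chromosome 13, 36867178 to 37050244), the subunit of coagulation factor XIII that cross-links fibrin and that monocytes and platelets carry, had 0, 0 and 4 reads in control and 872, 1364 and 984 in knockout. The knockout level was 26.0 ± 5.06 CPM, and the ratio of reads was 787 with an interval of 307 to 2892, wide because it rests on 4 control reads. C3 (gene 12266, chromosome 17, 57203967 to 57228136), the central protein of the complement cascade, had 0, 0 and 30 reads in control and 272, 293 and 166 in knockout. All C3 reads of the control group came from control replicate 3, with 0.229 ± 0.397 CPM as the group mean against 5.99 ± 1.92 CPM in knockout, a ratio of reads of 23.8 (interval 16.6 to 35.6).

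All 10 genes passed the filter for low values, which asks for at least 1 CPM in 3 of the 6 libraries, but 3 of them (F13a1, Adgre1 and C3) did so with no control library at 1 CPM and so had to differ. Ly6c2, Csf1r and Mpeg1 passed with 1 control library, Ccr2 with 2, and Lyz2, Ctss and Itgam with all of them. Of all tested genes, 8.52% lay higher in every knockout library than in every control library and 2.16% did so with at least a 2-fold difference. The genes described here number 9 and 7 of 10 by these rules. Since they were chosen on this contrast, nothing is read from that. The median log2 difference of the 10 was 4.22, also with Adgre1 at its bound, against 0.003 for all tested genes.

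To compare levels between genes, CPM was divided by exon length in kilobases (RPKM). In control, Lyz2 stood at 425.8 ± 8.59 RPKM, Ctss at 12.6 ± 1.96 and Itgam at 8.05 ± 1.14, each apart from the next. The other 7 genes lay at or below 0.267 RPKM (Mpeg1), and no neighbours in their order differed beyond the spread between libraries. In knockout, Lyz2 again led with 579.8 ± 36.6 RPKM. Ly6c2 moved up beside Ctss, at 15.1 ± 0.948 and 18.5 ± 3.19 RPKM with overlapping libraries, and above Itgam at 9.12 ± 1.37. F13a1 followed at 3.85 ± 0.751 RPKM, and Csf1r, Ccr2, Adgre1, Mpeg1 and C3 ran from 2.06 to 1.17, each overlapping the next.

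**Figure D2:**
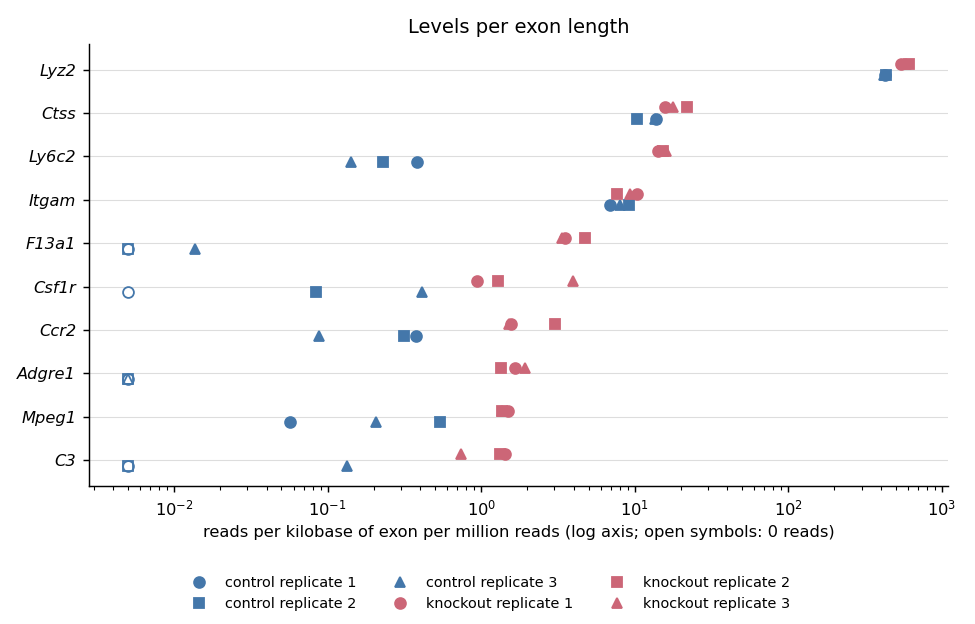
Level per kilobase of exon (RPKM, log axis) of the 10 genes, in order of their knockout mean; filled symbols are single libraries and open symbols at the left edge are libraries with 0 reads. Lyz2, Ctss and Itgam lie above 1 RPKM in all 6 libraries, while the other 7 genes lie below 1 RPKM in every control library.

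Summed, the 7 genes that were low in control gave 3.84, 5.56 and 5.02 CPM in control replicates 1, 2 and 3 and 97.4, 118.5 and 115.5 CPM in the knockout replicates. The sums were even across the knockout libraries, but the single genes were not. Over all 10 genes, the SD between knockout libraries was 17.4 times what counting error gives for Csf1r, 11.1 times for Lyz2 and 9.86 times for Ccr2. It was 6.55 times for Itgam, 6.35 times for F13a1, 5.52 times for Ctss and 5.05 times for C3. For Adgre1 it was 2.62 times, for Ly6c2 2.58 times and for Mpeg1 0.896 times. The highest knockout library held 4.24 times the CPM of the lowest for Csf1r, 1.97 times for Ccr2 and 1.94 times for C3, and 1.10 to 1.43 times for the other 7. No single library led, as knockout replicate 1 was highest for 3 genes, replicate 2 for 4 and replicate 3 for 3.

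**Figure D3:**
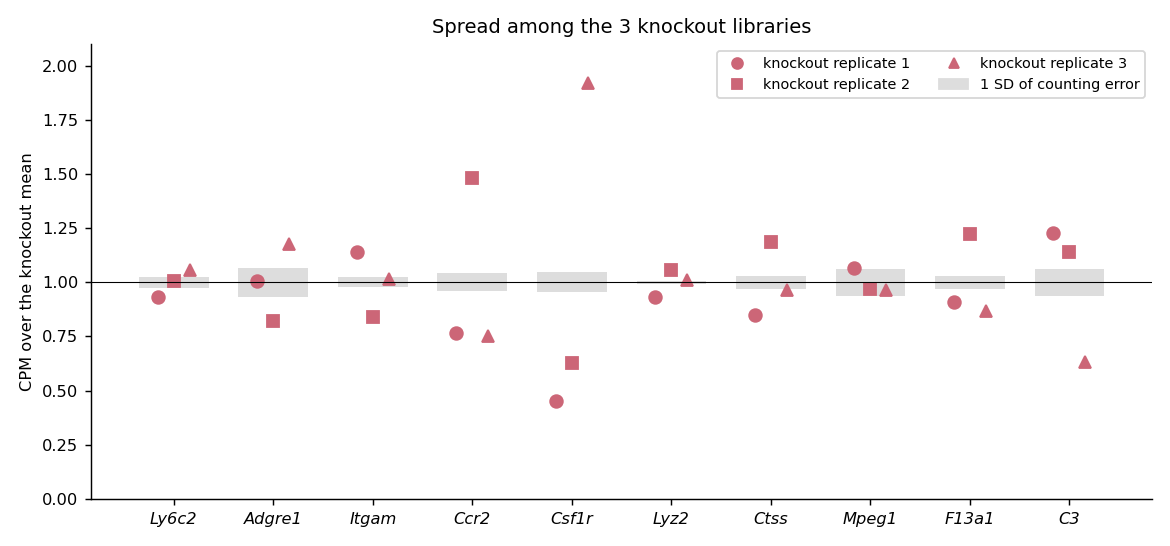
Level of each gene in the 3 knockout libraries divided by the mean of those libraries (vertical axis, no unit); grey boxes are 1 SD of counting error on either side of 1. Csf1r spreads most widely, with knockout replicate 3 at 4.24 times knockout replicate 1, while Mpeg1 stays near its counting error.

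Genes outside the 10 were followed in 7 lists of related genes. Among 31 tested monocyte genes, 4 rose in knockout, none fell and 27 were not called, with a median log2 difference of 1.46, and 18 lay above every control library in all knockout libraries, against 8.52% of all tested genes. Of those 18, 5 had no control library at 1 CPM and entered the test through the knockout group. Ccl6, a chemokine of myeloid cells, rose from 1.17 ± 0.411 to 24.5 ± 4.41 CPM (log2 4.42, SE 0.41, adjusted p = 0.000615). Tyrobp, the adaptor DAP12 of myeloid receptors, rose from 3.79 ± 0.415 to 21.96 ± 2.81 CPM (adjusted p = 0.00215). The calls of Ccl6 and Tyrobp held under every alternative run, which was not so for Hp, encoding haptoglobin (0.668 ± 0.228 to 12.5 ± 2.05 CPM, adjusted p = 0.0036), and Chil3, a chitinase-like protein of myeloid cells named after its values were seen (6.53 ± 3.85 to 32.6 ± 3.14 CPM, adjusted p = 0.0134). Hp had no control library at 1 CPM, so it entered the test through the knockout group and was not tested when any one knockout library was left out and the filter for low values was repeated on the other 5. With the genes of all 6 libraries kept, Hp was not called without knockout replicate 2 or 3 (adjusted p = 0.0648 and 0.0586). Chil3 was not called without control replicate 3 or any one knockout library (0.0546 to 0.106). Both Ccl6 and Hp are also expressed by granulocytes.

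Several classical monocyte markers of the list were sparse. Cx3cr1, the fractalkine receptor of patrolling monocytes, had 1 read in control (replicate 3) and 9, 116 and 303 in the knockout libraries, and did not pass the filter. Cd14, the lipopolysaccharide co-receptor, overlapped between groups (1.44 ± 1.37 and 1.36 ± 0.720 CPM), as did Fcgr1, the high-affinity IgG receptor CD64 (0.590 ± 0.428 and 0.887 ± 0.770 CPM). Klf4, a transcription factor of monocytes, had 336, 96 and 223 reads in control and 46, 131 and 31 in knockout (adjusted p = 0.411).

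Among 16 tested genes of tissue macrophages, 0 were called by limma or by voom, with 3 higher and 1 lower at an unadjusted p below 0.05, and the median of their log2 fold changes was 0.25. Over all tested genes, 5.58% were higher and 4.72% lower at that threshold, the shares to set beside the lists below as well. Siglec1, the sialoadhesin of marrow macrophages, was at 0 reads in all 6 libraries. Mrc1, the mannose receptor, had 0 reads in every control library and 0, 157 and 187 in knockout. Cd68, a lysosomal protein of macrophages, gave 16.05 ± 8.83 and 15.0 ± 3.22 CPM with overlapping groups, Vcam1 5.80 ± 2.31 and 10.2 ± 2.98 CPM, likewise overlapping, and the complement gene C1qa 0.470 ± 0.111 and 1.24 ± 0.357 CPM.

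In the list drawn up around the CSF1 receptor, 2 of 23 tested genes rose and 0 fell. That list also holds transcription factors and receptor chains for other cytokines, and the 2 genes that rose are of these kinds. Irf8, the transcription factor that directs precursors to monocytes, rose from 226, 75 and 169 reads to 1212, 889 and 611 (log2 2.58, SE 0.44, adjusted p = 0.0315). Csf2rb, the shared receptor chain for GM-CSF, IL-3 and IL-5, rose from 15.1 ± 2.45 to 42.5 ± 11.1 CPM (log2 1.47, SE 0.24, adjusted p = 0.0214). Irf8 was not called without control replicate 2 or 3 or knockout replicate 1 or 2 (adjusted p = 0.0526 to 0.143 with the filter repeated), nor, with the genes of all 6 libraries kept, without knockout replicate 3 (0.0586). Csf2rb was not called without control replicate 2 or 3 or knockout replicate 1 or 3 (adjusted p = 0.0514 to 0.13 with the filter repeated), nor, with the genes of all 6 libraries kept, without control replicate 1 (0.0524). The ligands Csf1 (adjusted p = 0.561) and Il34 and the regulators Spi1 (76.4 ± 3.47 and 81.2 ± 14.7 CPM), Cebpa (2.98 ± 1.73 and 1.25 ± 0.666) and Cebpb (38.4 ± 7.88 and 39.1 ± 8.94) overlapped between groups, and none of those tested was called.

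Of the chemokine genes around CCR2 and CX3CR1, 8 were tested and 0 were called by limma or by voom, with 0 at an unadjusted p below 0.05. The ligands of CCR2 had few reads, with Ccl2 at 0 to 48 reads per library, Ccl7 at 32 reads in knockout replicate 1 and 0 elsewhere, and Ccl12 at 0 reads in all 6 libraries. Of 14 tested complement genes other than C3, 0 were called by limma or by voom, with 2 higher and 0 lower at an unadjusted p below 0.05. C3ar1, the receptor of the C3a fragment, had 37, 0 and 17 reads in control and 107, 16 and 0 in knockout. C5ar1 had 64, 0 and 24 reads against 250, 87 and 80 (adjusted p = 0.487).

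Of 24 tested cathepsins and lysosomal hydrolases, 0 were called by limma or by voom (3 higher and 2 lower at an unadjusted p below 0.05), with a median log2 fold change of 0.00. Ctsb (284.6 ± 53.6 and 299 ± 30.8 CPM), Ctsd (475.3 ± 15.7 and 469.2 ± 15.95 CPM), Ctsl (88.1 ± 11.3 and 100.2 ± 15.3 CPM) and the inhibitor Cst3 (186.6 ± 7.77 and 177.5 ± 7.21 CPM) overlapped between groups. Among 14 tested genes of beta-2 integrins and their partners, Itgb2 rose and 0 fell. Itgb2 encodes CD18, the chain that pairs with CD11b to form Mac-1, and it rose from 2052, 2259 and 3255 reads to 4535, 5666 and 4825 (log2 0.98, SE 0.15, adjusted p = 0.0165). Itgb2 fell short of the threshold without control replicate 2 or knockout replicate 1 or 2 (adjusted p = 0.0549 to 0.108 with the filter repeated) and without the trend (0.173), and without knockout replicate 3 only with the genes of all 6 libraries kept (0.0586). Of the other alpha chains, Itgal overlapped (15.8 ± 4.50 and 19.4 ± 4.08 CPM), and Itgax, the CD11c of dendritic cells and macrophages, had 6 reads in control replicate 3 and 0 in the other 5 libraries.

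Over the 7 lists together, 7 of 130 tested genes rose and 0 fell, against 0.407% higher and 0.292% lower over all tested genes. At an unadjusted p below 0.05, 29 were higher and 6 lower, against 5.58% and 4.72% over all tested genes. By voom 6 rose and 0 fell. Without the trend Ccl6, Tyrobp and Hp kept their calls, and with no filter on low values Ccl6 and Tyrobp did. The median log2 fold change of the 130 genes was 0.16. With 1 library left out the number that rose ran from 2 to 8, and it was 2 without knockout replicate 1 or, with the genes of all 6 libraries kept, without knockout replicate 3.

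**Figure D4:**
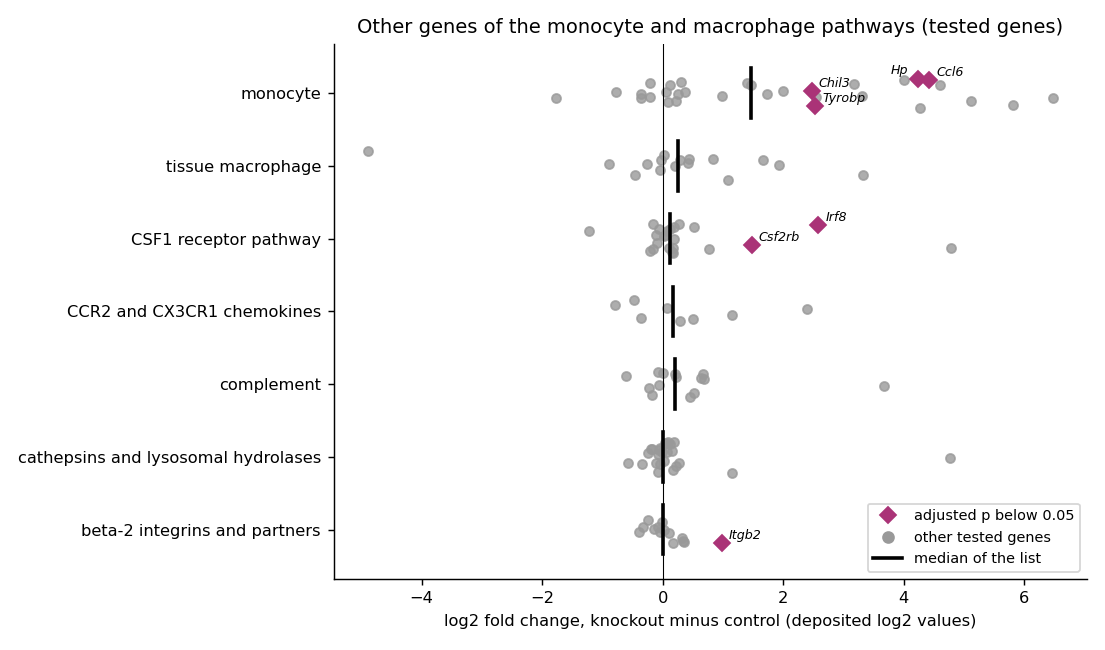
Log2 fold change, knockout minus control (horizontal axis), of each tested gene in the 7 lists; diamonds are genes with an adjusted p below 0.05, grey points are other tested genes and black bars are list medians. The monocyte list has a median of 1.46 and 4 called genes, while the cathepsin and integrin lists have medians near 0.

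Markers of other cell types moved between the same groups. Neutrophil genes summed to 307.5 to 324 CPM in control and 1140 to 1336 in knockout, with 10 of 16 called higher, led by S100a9, Ngp and S100a8, whose calls were kept with any library left out. Genes of eosinophils, basophils and mast cells summed to 14.1 to 20.5 and 644 to 745 CPM, with 8 of 12 called higher, and Epx, Prss34 and Mcpt8 were at 0 reads in every control library. Genes of B and plasma cells summed to 61.5 to 68.6 and 241 to 255 CPM, with 1 of 8 called higher (Igkc, which had 0 reads in every control library). Over all tested genes 0.407% were called higher. Some of these genes had no control library at 1 CPM and entered the test through the knockout group. They were 3 of the 16 neutrophil genes, 9 of the 12 of eosinophils, basophils and mast cells, and 4 of the 8 of B and plasma cells. Genes of megakaryocytes and platelets summed to 1885 to 2025 and 2310 to 2595 CPM, with Pf4 and Treml1 called higher and Thbs1 lower of 17. With the filter repeated, leaving out knockout replicate 2 ended the call of Treml1 (adjusted p = 0.0563), while Pf4 kept its call with any library left out. With the genes of all 6 libraries kept, Treml1 was not called without any one knockout library (0.0542 to 0.0685) and Pf4 was not called without knockout replicate 3 (0.0586).

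The monocyte list summed to 368 to 396 CPM in control and 552 to 574 in knockout, and the tissue macrophage list to 808 to 866 and 951 to 1069 CPM. Most of the tissue macrophage sum was Apoe, named after its values were seen, with 693 to 761 CPM in control and 839 to 942 in knockout. Erythroid genes (112 to 117 and 139 to 175 CPM, 0 of 9 called by limma or by voom, 7 higher at an unadjusted p below 0.05) and stromal and endothelial genes (111 to 119 and 130 to 176 CPM, 1 of 8 called, Cxcl12) were higher in sum in knockout. Of the 9 erythroid genes, 4 had no control library at 1 CPM and entered the test through the knockout group. Cxcl12 was not called without control replicate 3 or any one knockout library (adjusted p = 0.0952 to 0.233). Without the trend or with no filter on low values, Pf4, Treml1 and Cxcl12 were not called either (adjusted p = 0.0599 to 0.242). Dendritic cell genes (969 to 1053 and 837 to 1003 CPM) and genes of T and NK cells (91.8 to 117.5 and 110.9 to 130.6 CPM) overlapped in sum. Of 12 T and NK cell genes, 8 had 0 reads in every control library. Cd3e, Cd8a and Ncr1 were at 0 reads in all 6 libraries. The rest of those 8 did not pass the filter but had knockout reads. These were 112, 59 and 28 for Gzma, 39, 0 and 98 for Cd3g, and 52, 2 and 0 for Cd3d. Trbc1 had 5, 8 and 28 and Trbc2 8, 19 and 26. Of the 4 tested T and NK cell genes, 0 were called by limma or by voom, and the groups did not overlap for 1 that was lower. Of 10 tested dendritic cell genes, 0 were called by limma or by voom. At an unadjusted p below 0.05, 1 was higher and 3 were lower, against 5.58% and 4.72% of all tested genes. Groups did not overlap for 1 that was higher and 3 that were lower, against 8.52% and 8.01%. Cd48, a gene the sort selects against, gave 6.62 ± 3.60 CPM in control and 12.3 ± 6.12 CPM in knockout, with overlapping groups.

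**Figure D5:**
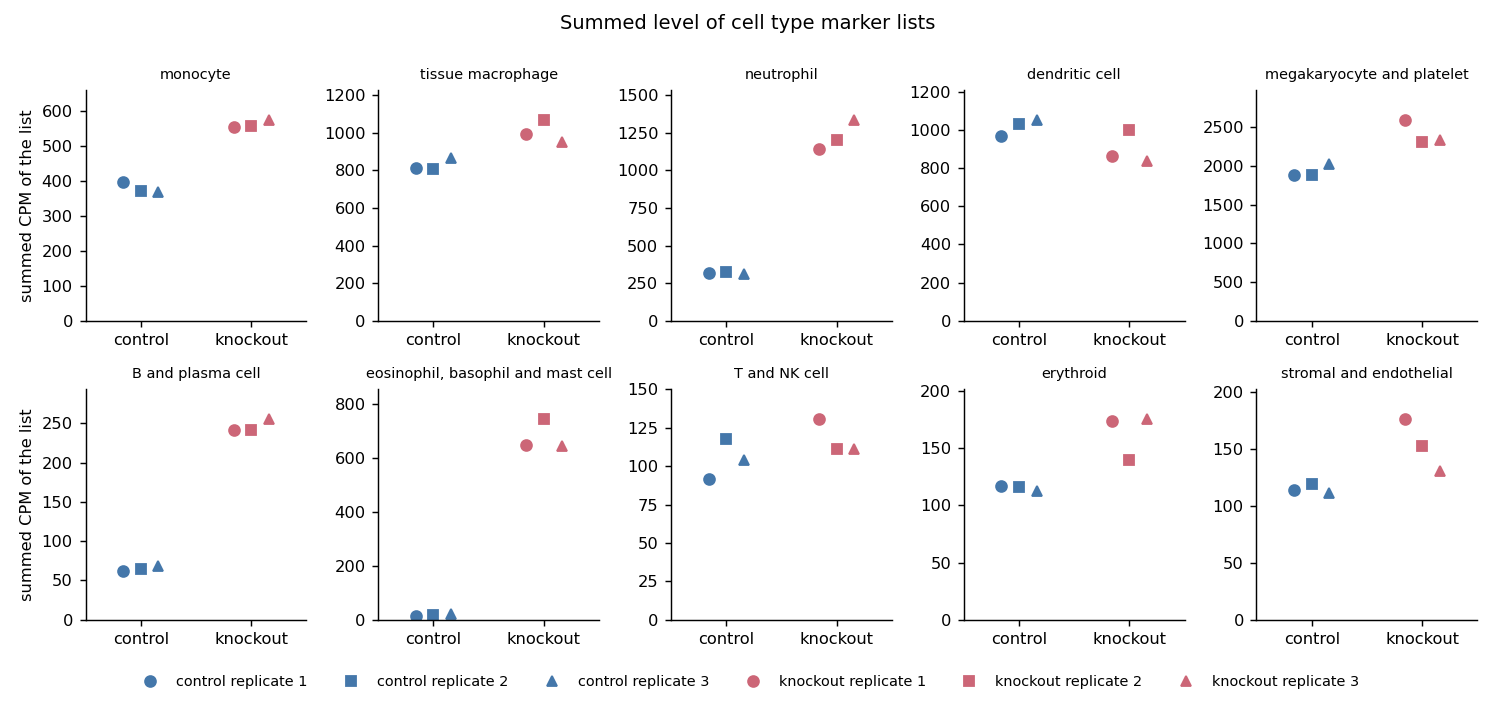
Summed level (CPM, axes from 0) of marker lists of 10 cell types in the 3 control and 3 knockout libraries, without the 10 genes themselves. The neutrophil sums were 307.5 to 324 CPM in control and 1140 to 1336 in knockout, and the dendritic cell and T and NK cell sums overlapped between groups.

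Among the 5 tested genes whose log2 level over the 6 libraries was most like the mean profile of the 10 were Plek (Pearson r = 0.998), Ngp (0.996), Ctsg (0.990) and Tyrobp (0.989). In all, 245 tested genes reached an r of 0.9 or more, so these are a small pick of a large group, and the 6 libraries share 2 pools. Since the 10 were chosen on the contrast, their mean profile follows it, at -1.04 to -0.637 in control and 0.748 to 0.804 in knockout. A gene of like profile thus also differs between the groups, and its adjusted p is no separate support. Plek, the pleckstrin of platelets and leukocytes, rose from 170.6 ± 12.2 to 275.7 ± 5.01 CPM (adjusted p = 0.0036, or 0.099 without the trend). Ctsg, the neutrophil protease cathepsin G, had 2 reads in control and 914, 905 and 944 in knockout, and without any one knockout library the call of Ctsg did not hold (adjusted p = 0.0596 to 0.0713, the genes of all 6 libraries being kept). With the filter repeated, Ctsg was not tested in those fits, and with no filter it was not called (adjusted p = 0.0566). A likeness among knockout libraries was noticed after the values were seen. Cx3cr1 (9, 116 and 303 reads) and Fn1, which encodes fibronectin (280, 394 and 940), were like Csf1r highest in knockout replicate 3, whereas Csf1 (598, 405 and 244) and Irf8 were highest in knockout replicate 1.

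Ly6c2 and Lyz2 each have a close copy in the genome, and reads may be divided between copies in a way that the labels do not state. The transcripts of Ly6c2 and Ly6c1 were 97.6% identical over 822 aligned bases with a longest shared run of 188, and those of Lyz2 and Lyz1 96.0% over 1262 with a run of 118. Ly6c1 had 0, 0 and 14 reads in control and 102, 78 and 86 in knockout, far below Ly6c2 (adjusted p = 0.315). Lyz1 had 10, 7 and 102 reads in control and 8, 12 and 135 in knockout, far below Lyz2, with overlapping groups.

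The 10 genes lie on 9 chromosomes. Of the 20 tested genes that flank them most closely, 0 were called by limma or by voom, and their median log2 fold change was 0.16. At an unadjusted p below 0.05, 3 of the 20 were higher and 1 was lower, against 5.58% and 4.72% of all tested genes. In every knockout library 3 neighbours lay higher than in any control library and 3 lay lower, against 8.52% and 8.01% of all tested genes, and all 6 were named after their values were seen. The lower ones were Nudt12 beside Adgre1, Hmgxb3 beside Csf1r and Pycard beside Itgam. The higher ones were Ly6c1 and Ly6a2 (adjusted p = 0.0846) beside Ly6c2, and Ly86 (0.244), the partner of the receptor CD180, on the higher-coordinate side of F13a1. C3 and Adgre1 are 130.4 kb apart on chromosome 17, and the 3 genes between them, also chosen after the values were seen, were not called. These are Trip10, Gpr108 and Vav1, and all overlapped between groups. Vav1, a signalling protein of blood cells, had 289.2 ± 30.8 CPM in control and 300.5 ± 16.4 in knockout, Gpr108 97.0 ± 8.51 and 90.1 ± 10.05, and Trip10 29.2 ± 0.444 and 26.0 ± 6.93.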

How the data were processed

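The 10 genes were chosen, and the lists of related genes drawn up, with earlier results of these data known. The submitters' processing notes name the mouse build mm10 and the tools FastQC, HISAT2, featureCounts and limma. They state neither versions nor strand, nor how multiply mapped reads were treated. The authors deposited log2 values for 27179 genes and 6 libraries, which are log2 CPM with an offset of 0.5 read. From these values whole reads were recovered for 100% of entries within 0.01. Gene symbols came from the RefSeq table of GRCm38.p6, which matched 25275 gene IDs and left 1904 unmatched.

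Tested were 13018 genes with a deposited log2 value of at least 0 (1 CPM) in at least 3 libraries. limma 3.58.1 (R 4.3.3) compared 3 with 3 libraries by lmFit and eBayes with a mean-variance trend and no block. A Benjamini-Hochberg adjusted p below 0.05 over all tested genes was a call, and for the 10 genes no p is given. Intervals are exact binomial at 95% and floors are 3 reads per library; both describe counting error alone, because without molecular identifiers reads do not stand for separate molecules. RPKM used the union of GENCODE vM21 exons. No pair of libraries agreed within sampling noise (chi-square per degree of freedom 42.4 to 94.4). Same-numbered libraries did not deviate together (correlations -0.010, -0.021 and 0.020). The fit was tested on simulated data with known changes.

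Named genes were Prdm16, the 10, listed partners whatever their values, at most 3 called genes of each list by adjusted p, the 5 genes most like the mean standardised log2 profile of the 10, and defining markers of cell types. Others are said to be chosen after their values were seen. A few genes that this rule names are not reported here. Alternatives were 2 other filters (none, 5 CPM), pseudocounts of 0.1, 1 and 5, centring on medians, quantiles made equal, a fit without trend, robust eBayes, voom on recovered reads, replicate number as a block, and each library left out. Leaving out a library with the genes of all 6 kept was added after seeing the data. Plots used matplotlib 3.10.9 (Python 3.11.15).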

Additional observations from a re-analysis of the deposited data

How the results depend on the processing

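The number of the 10 genes above every control library was 9 under median centring, quantile normalization and with any library left out, except 10 without knockout replicate 2. Their median log2 difference of 4.22 was 2.47 with log2(CPM + 1) and 1.05 with log2(CPM + 5), since a larger pseudocount shrinks differences of low genes, and it ran from 3.34 (without control replicate 1) to 4.74 with 1 library left out. The filter of 5 CPM tested 8 of the 10, and leaving out a knockout library with the filter repeated tested 7, so no median is given for those. All genes called higher numbered 19 with no filter, 105 with log2(CPM + 1), 104 with log2(CPM + 5) and 20 to 66 with 1 library left out. Genes called lower numbered 14 with no filter, 59 and 64 with log2(CPM + 1) and log2(CPM + 5), 15 without the trend and 19 to 31 with 1 library left out. In the 7 related lists, genes called higher numbered 2 with no filter, 11 with log2(CPM + 1) or log2(CPM + 5), 4 without the trend and 2 to 8 with 1 library left out, and the number called lower was 0 under every alternative.

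With the replicate number as a block, 44 genes were higher and 23 lower, and Itgb2 was not called (adjusted p = 0.0576). The numbers share no stated source and their deviations were not correlated. Of the 7 calls in the related lists, 3 were kept without the trend and 6 by voom, where Irf8 was not called (adjusted p = 0.0636). Of 15 genes that were not called and are given by level alone, 0 were called under any alternative and 9 changed sign under at least 1 (Cd14, Fcgr1, Cd68, Spi1, Cebpb, Ctsb, Ctsd, Trip10 and Vav1), so no direction is given for them. The cause of these shifts was not tested. Depth limits the genes with few reads, where 1 control library can hold every read of its group.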
